A study of Mus musculus with 27 samples.

Results

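Lipocalin 2, lactoferrin and acute phase genes are 8 mouse genes of secreted defence proteins: Lcn2, Ltf, Lrg1, Serpina3n, Saa1, Saa3, S100a8 and S100a9. The members were chosen by name, with measured levels of some of them in view, and their rows were taken by gene symbol from 2 deposited expression tables. Of the 8, 7 had a row among the 17440 genes of one table (Saa1 is not analysed here) and 6 among the 15176 genes of the other (Saa1 and S100a8 are not analysed there). All 7 and all 6 passed the filter on low values, which left 15173 and 14806 genes. They passed it through the adenoma libraries, since no member reached 1 unit of the filter in any control library, so a count of members above control adds nothing to that choice. They were selected on earlier differences between the transgene libraries and the other libraries of their table, where Lcn2, Lrg1 and Serpina3n stood out, so those values are given below as a description without a test.

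Bulk RNA of intestinal epithelium and intestinal adenomas was sequenced from mice of the Braf and Fosl1 models. Each genotype includes Vil-CreERT2, a Cre recombinase under the promoter of villin, an epithelial gene, that tamoxifen switches on, so recombination is aimed at the intestinal epithelium. The transgene group, FTg-ON, is Tet-o-Fosl1;Vil-CreERT2/+, a tetracycline-switchable Fosl1 gene, fed chow with doxycycline at 2000 mg/kg from the week after tamoxifen. No other group is labelled as given doxycycline, no transactivator is named, and the Braf allele is not part of that genotype. The knockout group is BrafV637E/+;Vil-CreERT2/+;Fosl1lox/lox, in which floxed Fosl1, the gene of the AP-1 subunit Fra-1, is deleted together with activation of Braf. The Braf group is BrafV637E/+;Vil-CreERT2/+, carrying the mouse counterpart of human BRAF V600E. Mice were 6 weeks old, and the knockout mice are recorded as given 5 mg of tamoxifen by gavage on 2 days. The dose and days of the Braf and transgene mice are not given here. Control mice are described as Braf mutant mice gavaged with sunflower oil in place of tamoxifen. By that description they carry the alleles of the Braf group, unrecombined, and not those of the transgene or knockout group. Transgene and knockout therefore also differ from control in the alleles carried. Titles call the transgene, knockout and Braf libraries adenoma and the control libraries normal tissue, so every comparison with control also sets tumour against normal tissue. The tissue entry of the transgene and knockout libraries, unlike that of Braf, does not name adenoma.

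The transgene table holds 3 transgene, 3 Braf and 3 control libraries in reads scaled to library size (CPM), with 12.4 to 15.5 M reads per library. In it 3 reads stood for 0.194 to 0.242 CPM. The knockout table holds 6 knockout, 5 Braf and 6 control libraries from other mice, in normalised counts that were brought to the scale of CPM with 1 factor for the whole table and are written nCPM. Its depth is not given here, and a value below 0.0793 nCPM was read as no count. The tables were normalised separately and are compared only within themselves. Fosl1 RNA was 3.62, 3.70 and 3.30 CPM in the transgene libraries, 4.15, 4.27 and 5.31 CPM in Braf and 0 CPM in each of the 3 controls, and the deletion in the knockout libraries was not checked, since Fosl1 is not analysed there. Libraries are numbered by mouse in their titles. Epithelial markers summed to between 10720 and 25304 CPM or nCPM in every library. In the knockout table all 6 controls and knockout libraries 2 and 3 hold small fractions in place of zeros, whereas all 5 Braf libraries and the other 4 knockout libraries hold exact zeros. Braf against control in that table cannot be told apart from this split.

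Lipocalin 2 binds the iron-carrying siderophores of bacteria, and lactoferrin, the product of Ltf, binds iron directly, so both withhold iron from microbes. Lrg1 encodes a leucine-rich glycoprotein known for TGF-beta signalling in blood vessels, Serpina3n a serine protease inhibitor, and Saa1 and Saa3 are serum amyloid A proteins of the acute phase response. S100a8 and S100a9 encode the subunits of calprotectin, a metal-binding protein abundant in neutrophils. In inflamed gut such genes are known to be made both by epithelium, downstream of cytokines that act through STAT3, NF-kB and C/EBP factors, and by infiltrating neutrophils, whose granules hold lipocalin 2 and lactoferrin. Serpina3n and the Saa genes each lie in a cluster of related genes. The way the authors' counting treated reads shared by related genes is not given in the sources used here, so their values are less certain. On GRCm38 (GENCODE M21), Lcn2 lies on chromosome 2 from 32384633 to 32388252, Ltf on chromosome 9 from 111019271 to 111042767, Lrg1 on chromosome 17 from 56119678 to 56122001 and Serpina3n on chromosome 12 from 104406729 to 104414329. The serum amyloid genes are neighbours on chromosome 7, with Saa3 from 46711998 to 46715700 and Saa1 from 46740497 to 46742980. The calprotectin genes are neighbours on chromosome 3, with S100a8 from 90668978 to 90670035 and S100a9 from 90692632 to 90695721.

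The 250 bases before the RefSeq start of each of the 8 members (GRCm38.p6) were searched on both strands for letters of the factors named above. The C/EBP letters TTGCNNAA occurred in 5 of 8 members and in 9.55% of 27025 mouse promoters of the same length. The letters of AP-1, the class of factor that Fosl1 belongs to (TGANTCA), occurred in 0 of 8 members and 6.87% of all promoters. Those of STAT (TTCNNNGAA) occurred in 0 of 8 and 7.18%, and an NF-kB consensus in 0 of 8 and 3.75%. The C/EBP matches are shown because the other 3 motifs had no match in any member. They are descriptions of letters in this window and not shown to be sites. Each line gives 30 bases on the strand of the gene, with the match, in either orientation, in capitals.
Lcn2 (chr2:32387937-32387966, minus): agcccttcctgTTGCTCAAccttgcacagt
Ltf (chr9:111019206-111019235, plus): aggcaggcctaTTGGGCAAtagggtggggc
Saa1 (chr7:46743144-46743173, minus): ctgtgctcccaTTGCACAAtgagggagaat
Saa3 (chr7:46715757-46715786, minus): ggtaagtgggaTTATGCAAgatcaaacagg
S100a9 (chr3:90695939-90695968, minus): ggtaggctgtcTTGCTTAAgatttgggcgg

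Counted from the start, the match began at -75 in Ltf, -99 in Saa3, -182 in Saa1, -216 in Lcn2 and -236 in S100a9. The Lcn2 match lies in an exon of a longer GENCODE transcript. Ltf and Lrg1 fell in the knockout, as described below, and are shown from base 250 before the start to the first base of a GENCODE transcript. Ltf holds a match in capitals and Lrg1 holds none of the letters searched.
Ltf (chr9:111019042-111019270, plus): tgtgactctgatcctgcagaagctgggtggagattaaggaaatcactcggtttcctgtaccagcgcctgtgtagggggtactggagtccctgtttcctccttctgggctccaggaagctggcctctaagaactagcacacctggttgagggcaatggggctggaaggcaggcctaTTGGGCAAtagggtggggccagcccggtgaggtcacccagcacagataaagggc
Lrg1 (chr17:56122002-56122196, minus): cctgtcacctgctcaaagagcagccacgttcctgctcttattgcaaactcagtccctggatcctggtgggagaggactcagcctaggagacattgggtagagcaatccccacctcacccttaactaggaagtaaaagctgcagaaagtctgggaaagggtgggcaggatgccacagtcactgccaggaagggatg

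The first comparison set transgene adenomas against Braf adenomas and against control epithelium. All 7 members were higher in each of the 3 transgene libraries than in any Braf library, and higher in any Braf library than in any control library. Lcn2, Lrg1 and Serpina3n were between 252 and 891 CPM in the transgene libraries, and S100a8 and S100a9 differed least from Braf. Of all tested genes, 27.9% lay in each transgene library above every Braf library, 50.6% in each transgene library above every control, and 38.1% in each Braf library above every control, so such separation was common.

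Among the iron-binding members, Lcn2 was 891, 416 and 416 CPM in transgene libraries 1 to 3, 63.9, 5.96 and 2.87 CPM in Braf 1 to 3, and 0.0715, 0.389 and 0.379 CPM in control 1 to 3. Transgene library 1 was the highest, the other two transgene libraries were level, and Braf 1 stood far above the other Braf libraries. The transgene mean was 574 ± 274 CPM (SD, n = 3), 23.7-fold over the Braf mean of 24.3 ± 34.4 CPM, and 130-fold over it when Braf 1 is left out. Ltf was 379, 345 and 181 CPM in the transgene libraries, 117, 13.05 and 29.0 CPM in Braf, and 0.501, 0.467 and 0.682 CPM in control. Its transgene mean of 302 ± 106 CPM was 5.69-fold over the Braf mean of 53.1 ± 56.0 CPM, or 14.3-fold without Braf 1. The 2 genes therefore stood in a different proportion. Ltf divided by Lcn2 within a library was 0.426, 0.829 and 0.436 in the transgene libraries, against 1.83, 2.19 and 10.1 in Braf, and the groups did not overlap. This ratio is a description, taken from the values the members were chosen on. Among the Braf libraries of the knockout table it ran from 0.530 (Braf 7) to 16.3 (Braf 8), so low ratios were also seen in Braf adenomas.

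Lrg1 was 704, 354 and 315 CPM in the transgene libraries, 23.5, 6.68 and 4.64 CPM in Braf, and 0.215, 0.467 and 0.152 CPM in control. Like Lcn2 it was highest in transgene 1 and in Braf 1. Its transgene mean of 458 ± 214 CPM was 39.4-fold over the Braf mean of 11.6 ± 10.4 CPM, or 80.8-fold without Braf 1. Serpina3n was 328, 252 and 431 CPM in the transgene libraries and 8.78, 0.644 and 0.811 CPM in Braf, with no read in any control. Transgene 3 was the highest for this inhibitor, so the order of the transgene libraries was not that of Lcn2 and Lrg1. The transgene mean of 337 ± 89.8 CPM was 98.7-fold over the Braf mean of 3.41 ± 4.65 CPM, and 463-fold over it without Braf 1.

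Saa3 was 103, 35.1 and 168 CPM in the transgene libraries and 16.4, 0.725 and 5.97 CPM in Braf, while control held 3 reads in 1 library and none in the other two. Its transgene mean was 102 ± 66.3 CPM, 13.2-fold over the Braf mean of 7.69 ± 7.96 CPM, or 30.4-fold without Braf 1. The calprotectin genes differed less between the adenomas. S100a8 was 6.01, 3.70 and 5.12 CPM in the transgene libraries and 3.30, 0.0805 and 2.21 CPM in Braf, with no read in control. S100a9 was 13.7, 12.9 and 13.2 CPM in the transgene libraries and 8.99, 1.29 and 4.86 CPM in Braf, with 1 read in the 3 controls together. The transgene means were 2.65-fold (S100a8) and 2.62-fold (S100a9) over Braf, or 4.31-fold and 4.31-fold without Braf 1. The 3 transgene libraries were nearly level for S100a9 (SD 0.414 CPM), whereas the 3 Braf libraries spread widely (SD 3.86 CPM).

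**Figure D1:**
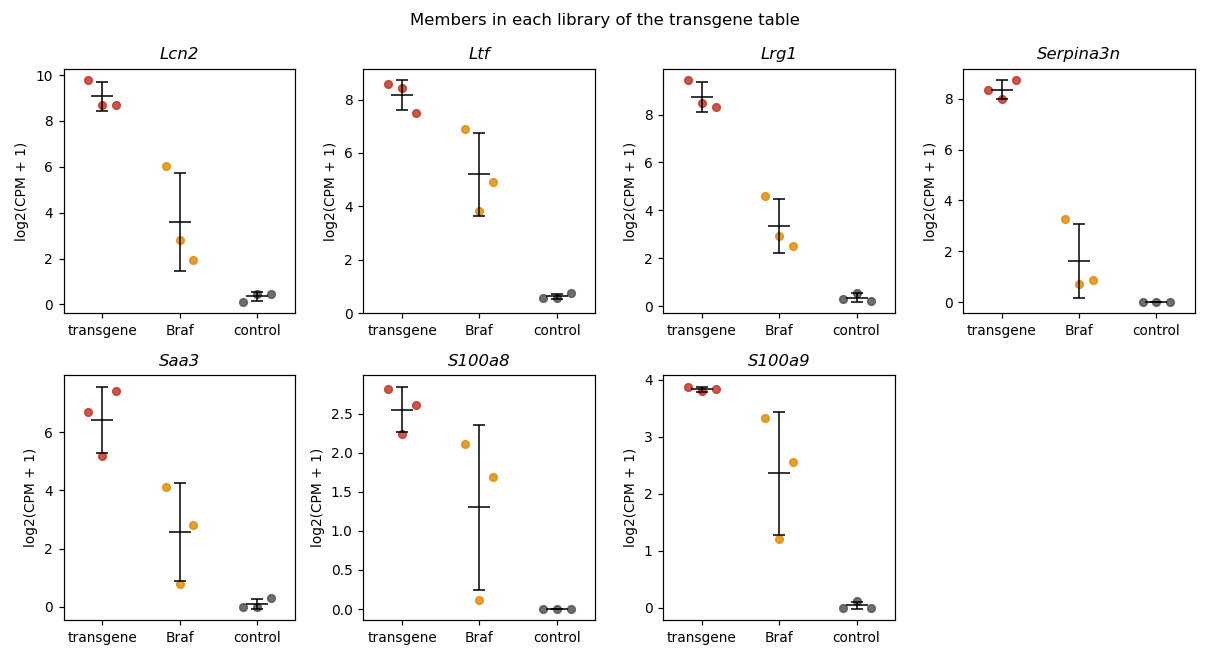
Each panel plots 1 gene of the transgene table, with the level on a log2(CPM + 1) axis whose range differs by gene. Points are libraries of the transgene, Braf and control groups (3 each), bars are the mean and SD of the log2 values; the transgene points lie above all Braf points, and the Braf points above all control points, in the 7 panels.

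Markers of other cell types and of epithelium differed alongside. Summed epithelial markers were 14848 to 17142 CPM in transgene, 22492 to 25214 CPM in Braf and 15179 to 17522 CPM in control, so transgene and Braf did not overlap, and 3 of 10 genes (the keratins Krt8, Krt18 and Krt19, named after their values were seen) were lower in transgene at an adjusted p below 0.05 in limma. Fibroblast markers were higher in transgene than Braf in 6 of 6 genes and summed to 615 to 1204 CPM in the transgene libraries, against 18.5 to 170 CPM in Braf and 6.59 to 18.3 CPM in control. Summed macrophage markers ran from 249 to 595 CPM in transgene, 38.2 to 243 CPM in Braf, where Braf 1 was the highest, and 7.51 to 38.1 CPM in control. Of the 20 neutrophil markers 17 had a row. Their sum was 103 to 183 CPM in transgene, 67.1 to 101 CPM in Braf and 11.2 to 13.8 CPM in control. Of the 8 tested, 2 were higher and 0 lower in transgene than in Braf at an adjusted p below 0.05 in limma. Single genes, named after their values were seen, differed in direction. Ngp, a granule gene, had no read in any transgene or Braf library. Means were lower in transgene for Ly6g (2.35 CPM, against 27.9 CPM in Braf), Mpo and Prtn3. They were higher in transgene for the rest, among them Mmp9 (39.1 CPM, against 13.3 CPM in Braf) and Padi4 (49.5 CPM, against 25.7 CPM). The part of these cells in the members' levels was not tested, and in bulk tissue more cells of a type and more RNA per cell cannot be told apart.

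The genes around the members were read from lists chosen with earlier results known. Of 10 tested cytokines known to induce such genes, 6 were higher and 0 lower in transgene than in Braf at an adjusted p below 0.05 in limma, where 14.5% of all tested genes were higher. Il1b, the gene of interleukin 1 beta, averaged 30.1 CPM in transgene and 5.33 CPM in Braf. Il11 averaged 61.4 CPM in transgene and 5.43 CPM in Braf. Others, chosen after their values were seen, were Il6 at 5.64 CPM in transgene and 0.0983 CPM in Braf, and Csf3 at 2.93 CPM in transgene and 0.187 CPM in Braf. Of 14 transcriptional mediators 3 were higher and 1 lower. The higher ones were Cebpd, a C/EBP factor, at 106 CPM in transgene and 35.1 CPM in Braf, Socs3, a feedback inhibitor of STAT3 signalling, at 116 CPM in transgene and 47.9 CPM in Braf, and Stat3 at 205 CPM in transgene and 122 CPM in Braf. Other acute phase genes were split, with 4 of 10 higher and 1 lower. Steap4, a metalloreductase, averaged 22.2 CPM in transgene and 3.18 CPM in Braf, and Cp, the gene of the copper protein ceruloplasmin, 26.8 CPM in transgene and 3.86 CPM in Braf. The lower one, named after its value was seen, was Il1rn, the interleukin 1 receptor antagonist, at 104 CPM in transgene and 471 CPM in Braf. Of 9 other S100 genes 0 were higher and 1 was lower, S100b, which is also named after its value was seen (log2 difference -2.05).

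Whether the members rose with activated Braf was read in both tables. For the transgene libraries' table, 7 of 7 were higher in Braf than in control at an adjusted p below 0.05 in limma, where 33.1% of all genes were. Serpina3n reached 1 CPM in 1 of the 3 Braf libraries and Saa3 and S100a8 in 2 each, so these 3 genes passed the filter, which asks for 3 libraries, only with the transgene libraries they were chosen on. The controls are those of the transgene comparison, so the 2 results are not independent. No control library reached 1 CPM for any member, and the fit shares its spread with the transgene libraries. This count and the p-values below are therefore descriptions. Ltf had the largest log2 change, 4.57 (95% interval 2.98 to 6.16, adjusted p = 0.00086), followed by Lcn2 at 3.25 (1.06 to 5.43, adjusted p = 0.0217) and Lrg1 at 3.01 (1.84 to 4.17, adjusted p = 0.00119). S100a9 changed by 2.32 (adjusted p = 0.0013) and Saa3 by 2.47 (adjusted p = 0.0363). Serpina3n (1.62, adjusted p = 0.0463) and S100a8 (1.30, adjusted p = 0.0286) had no read in control, and their Braf means were at least 15.2-fold and at least 8.28-fold over a floor of 3 reads per library. Braf 1 was the highest Braf library for all 7 members. The count fell to 3 or 4 when any 1 control library was left out and to 3 with a pseudocount of 5, in each case with Ltf, Lrg1 and S100a9 among those called.

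In the knockout table, with other mice, 6 of 6 members were higher in Braf than in control, where 45.3% of all genes were, and the groups did not overlap for any of the 6 (32.3% of all genes lay in each Braf library above every control). No control library reached 1 nCPM for any member, so all 6 passed the filter through adenoma libraries. This count, the separation and the p-values below are therefore descriptions. Lcn2 was 5.18, 8.25, 7.39, 18.6 and 6.16 nCPM in Braf 4 to 8, against 0.0339 nCPM as the median of 6 controls (0.00367 to 0.310). Its log2 change was 3.09 (95% interval 2.38 to 3.79, adjusted p = 2.27e-07). Ltf was 4.51, 8.73, 23.5, 9.85 and 101 nCPM in Braf 4 to 8, against a median of 0.312 nCPM in control (0.245 to 0.597). Braf 8 was far above the others, and the Braf mean was 29.5 ± 40.4 nCPM with it and 11.7 ± 8.24 nCPM without it (log2 change 3.64, adjusted p = 1.11e-05). Lrg1 was 1.12, 11.5, 5.37, 20.7 and 7.02 nCPM in Braf 4 to 8, against a median of 0.158 nCPM in control (0.00598 to 0.778), with a log2 change of 2.64 (adjusted p = 2.48e-05). These 3 genes were lowest in Braf 4, while Braf 7 was the highest for Lcn2 and Lrg1.

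Serpina3n was 0.798, 8.59, 1.52, 48.6 and 1.85 nCPM in Braf 4 to 8 and had no count in any of the 6 controls (log2 change 2.49, adjusted p = 0.00704). Braf 7 and Braf 5 carried most of it, which makes this the most uneven of the members among the Braf libraries. Saa3 was 4.87, 5.93, 6.88, 1.59 and 2.47 nCPM in Braf 4 to 8, and S100a9 was 1.45, 0.883, 7.67, 1.27 and 11.6 nCPM. Of the 6 controls, 5 had no count of Saa3 and 5 none of S100a9 (log2 changes 2.22 and 1.98, adjusted p = 2.69e-05 and 0.00018). Neutrophil markers, 7 of 20 with a row, summed to 33.0 to 108 nCPM in Braf, against 9.71 to 13.3 nCPM in control, and macrophage markers to 92.7 to 207 nCPM in Braf, against 8.23 to 21.6 nCPM in control. Both sums were higher in Braf (exact permutation test over libraries, two-sided, p = 0.00433 each, the smallest that 5 against 6 libraries allow). Fibroblast markers were higher in 6 of 6 genes and summed to 70.7 to 509 nCPM in Braf, against 6.85 to 13.6 nCPM in control. T cell markers were lower in 4 of 4 genes and summed to 1.38 to 11.9 nCPM in Braf, against 13.96 to 46.7 nCPM in control. Epithelial sums were 15589 to 21009 nCPM in Braf, against 10720 to 14189 nCPM in control (exact permutation p = 0.00433). The part of these cells in the rise of the members was not tested.

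The comparison of knockout with Braf adenomas asks what the loss of Fosl1 changes in tumours with active Braf. Of 6 members 3 were lower in the knockout at an adjusted p below 0.05: the iron-binding pair Lcn2 and Ltf, and Lrg1. Of all 14806 tested genes 0.371% were lower (55 lower and 7 higher, or 18 lower and 8 higher after TMM scaling). Serpina3n, Saa3 and S100a9 also had lower means but did not pass. Lcn2, Ltf and Lrg1 reached 1 nCPM in 3, 4 and 2 of 6 knockout libraries, in 5 of 5 Braf and in 0 of 6 control libraries. The filter asks for 5 libraries, so these 3 genes entered the test only with Braf, the higher group. Their count is therefore a description. The libraries of Lcn2 and Ltf did not overlap between the groups, and 1.12% of all genes lay in each knockout library below every Braf library.

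Lcn2 was 0.462, 0.577, 3.65, 3.14, 2.10 and 0.291 nCPM in knockout libraries 1, 2, 3, 5, 6 and 7, against 5.18, 8.25, 7.39, 18.6 and 6.16 nCPM in Braf 4 to 8. Every knockout library was below every Braf library, knockout 3 and 5 being nearest to Braf 4. The means were 1.70 ± 1.47 nCPM in the knockout (SD, n = 6) and 9.12 ± 5.43 nCPM in Braf (n = 5), 5.35-fold lower in the knockout, with a log2 difference of -1.96 (95% interval -2.67 to -1.26, adjusted p = 0.0129). Ltf was 1.41, 0.338, 0.344, 2.66, 2.27 and 1.21 nCPM in the knockout libraries, against 4.51, 8.73, 23.5, 9.85 and 101 nCPM in Braf. It averaged 1.37 ± 0.961 nCPM in the knockout and 29.5 ± 40.4 nCPM in Braf, with a log2 difference of -2.95 (-4.05 to -1.86, adjusted p = 0.0199), the 5th largest fall of 14806 genes. The knockout mean was 21.5-fold lower, and 8.50-fold lower without Braf 8.

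Lrg1 was 0.462, 0.334, 2.33, 1.56, 0.523 and 0.596 nCPM in the knockout libraries, against 1.12, 11.5, 5.37, 20.7 and 7.02 nCPM in Braf. Knockout libraries 3 and 5 lay above Braf 4, so the groups overlapped. Means were 0.968 ± 0.802 nCPM in the knockout and 9.13 ± 7.44 nCPM in Braf, 9.43-fold lower in the knockout (log2 difference -2.08, -2.95 to -1.21, adjusted p = 0.0358). The authors' deposited table of genes that differ more than 2-fold between Braf and knockout lists 210 genes. Ltf and Lrg1 are among them, and none of the other members is. Their list of genes more than 2-fold up in Braf versus control holds 3290 genes and 0 of the 8 members. In the limma fit of the knockout table, 6 of 6 members were higher in Braf than in control. The reason for this difference was not tested.

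Serpina3n was 0.146, 0.828, 9.11, 1.09, 1.05 and 0.138 nCPM in the knockout libraries, against 0.798, 8.59, 1.52, 48.6 and 1.85 nCPM in Braf. Knockout 3 exceeded 4 of the 5 Braf libraries, and the log2 difference of -1.40 had an interval of -2.93 to 0.13 (adjusted p = 0.382). Saa3 was 1.58, 0.0578, 5.28, 2.35, 1.92 and 0.598 nCPM in the knockout libraries, where knockout 2 had no count, against 4.87, 5.93, 6.88, 1.59 and 2.47 nCPM in Braf (log2 difference -0.95, -1.70 to -0.21, adjusted p = 0.227). S100a9 was 0.945, 1.44, 0.507, 0.780, 0.349 and 1.06 nCPM in the knockout libraries, against 1.45, 0.883, 7.67, 1.27 and 11.6 nCPM in Braf (log2 difference -1.18, -1.97 to -0.38, adjusted p = 0.168). For these 3 genes the groups overlapped, and the intervals allow a fall as large as that of Lcn2 for Serpina3n and S100a9.

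**Figure D2:**
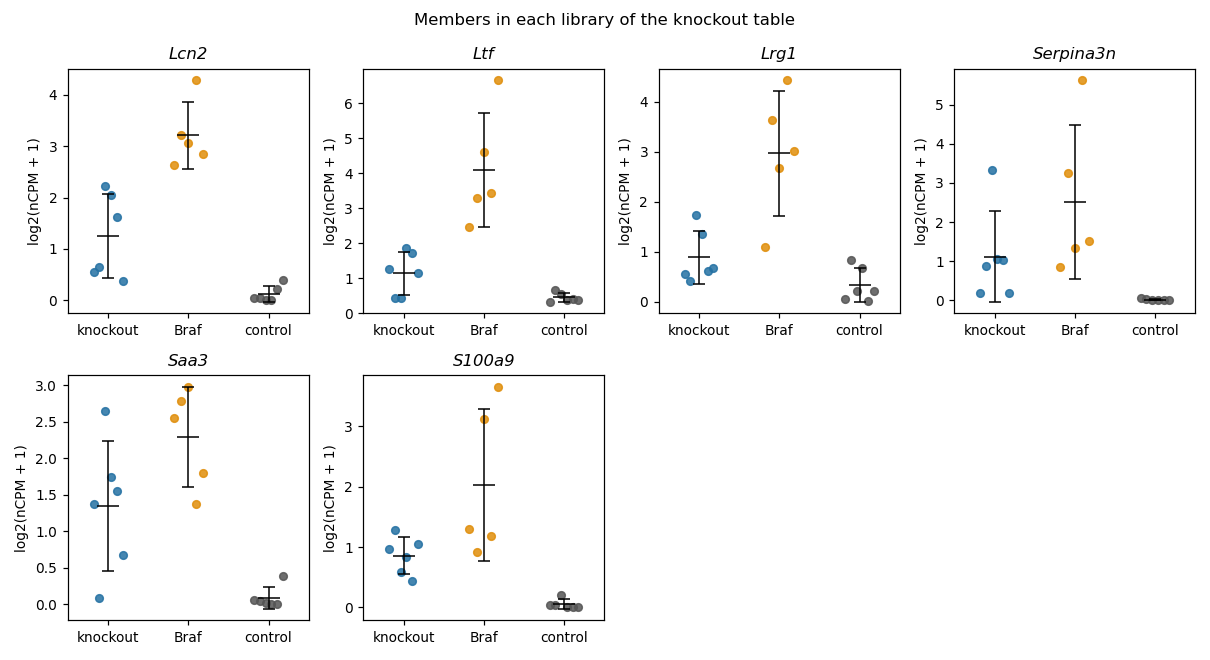
Each panel plots 1 gene of the knockout table, with the level on a log2(nCPM + 1) axis whose range differs by gene. Points are libraries of the knockout (6), Braf (5) and control (6) groups, bars are the mean and SD of the log2 values; for Lcn2 and Ltf all knockout points lie below all Braf points.

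These calls rested on the spread shared over the 3 groups. In a fit of knockout and Braf alone 0 of 6 members passed, with adjusted p = 0.138 for Lcn2, 0.197 for Ltf and 0.219 for Lrg1, although the log2 differences were the same. Lcn2 kept its call without any 1 library (adjusted p = 0.00625 to 0.0375), Ltf lost it without Braf 6 (0.0606) or knockout 2 (0.0577), and Lrg1 lost it without any of 7 single libraries and after TMM scaling (0.0836). Within the libraries with exact zeros, 4 knockout and 5 Braf, the log2 differences were -2.06 for Lcn2, -2.60 for Ltf and -2.17 for Lrg1. The lack of overlap there for Lcn2 and Ltf follows from that over all libraries and adds nothing. In a limma fit with a term for exact zeros or fractions, Lcn2 kept its call (adjusted p = 0.0451). Ltf and Lrg1 lost theirs (0.0908 each).

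**Figure D3:**
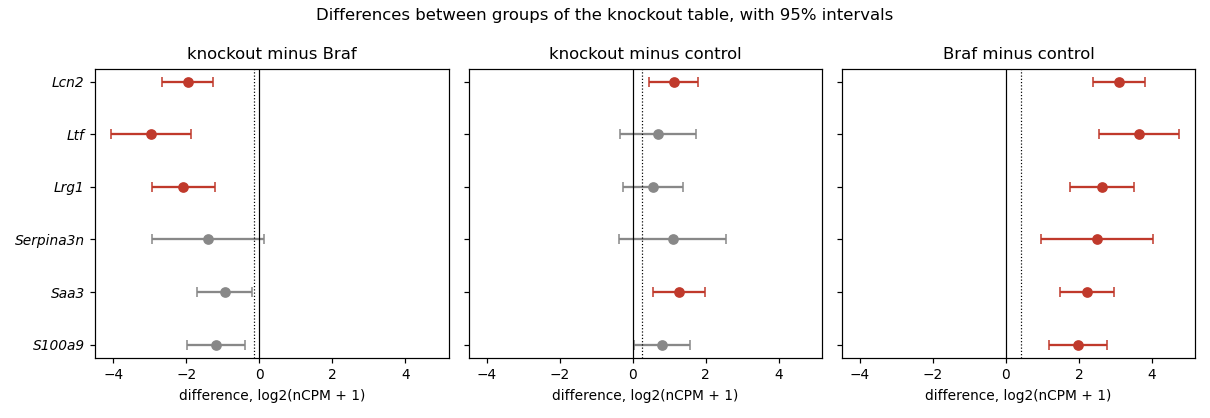
Differences between group means on the log2(nCPM + 1) scale for 6 genes, with 95% intervals from limma, for knockout minus Braf, knockout minus control and Braf minus control. Red marks an adjusted p below 0.05, grey the rest, the dotted line is the median of all tested genes; 3 members are red on the left, 2 in the middle and 6 on the right.

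Other cell types were set beside the fall. Summed neutrophil markers were 22.9 to 114 nCPM in the knockout and 33.0 to 108 nCPM in Braf (log2 difference -0.27, exact permutation p = 0.532, Benjamini-Hochberg adjusted 0.599 over 9 tests). Of the 7 neutrophil markers with a row, 1 fell, Csf3r, the receptor of the granulocyte growth factor, which is also in the list of cytokine receptors. Ly6g averaged 22.6 nCPM in the knockout and 13.6 nCPM in Braf. The other neutrophil markers had lower means in the knockout. Among them were Padi4 (16.2 nCPM in the knockout and 24.0 nCPM in Braf), Mmp9 (1.40 and 4.05 nCPM) and the nearly level Itgam (4.74 and 4.78 nCPM). The neutrophil sum averaged 48.5 nCPM in the knockout and 55.1 nCPM in Braf. Ly6g and Padi4 made up most of it in both groups, so the sum says little about the other markers. Summed macrophage markers were 22.3 to 107 nCPM in the knockout and 92.7 to 207 nCPM in Braf (log2 difference -1.09, exact permutation p = 0.00866, adjusted 0.013), with 0 of 8 genes called singly. Epithelial markers gave a log2 difference of 0.06 (exact permutation p = 0.779, adjusted 0.779). Hepatocyte, T cell and fibroblast markers had 0 of 2, 0 of 4 and 0 of 6 genes called. The part of macrophages in the fall of the members was not tested.

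**Figure D4:**
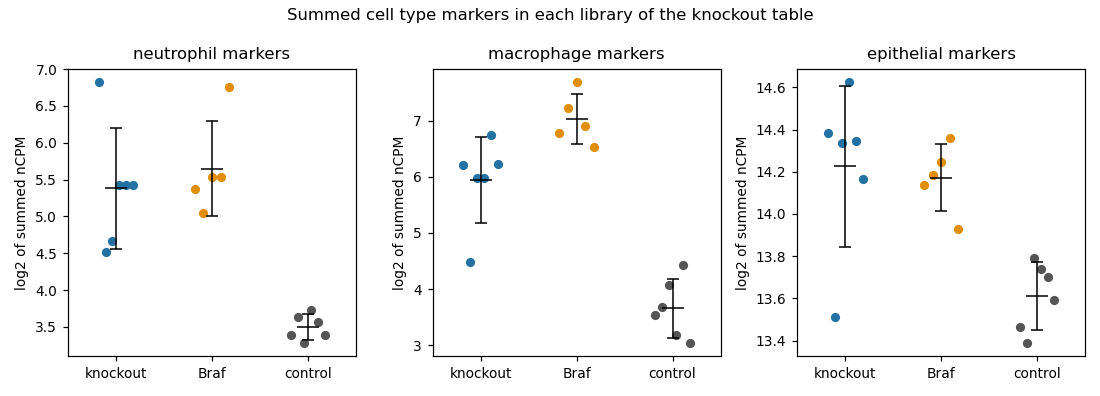
Log2 of the summed nCPM of neutrophil, macrophage and epithelial markers in each library of the knockout table; axes do not start at 0. Points are libraries of the knockout (6), Braf (5) and control (6) groups, bars are mean and SD; neutrophil sums of knockout and Braf overlap, and macrophage sums are lower in the knockout.

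Of the other genes of these pathways, 6 fell in the knockout. Among 11 other acute phase genes 2 fell, Steap4 at 0.854 ± 0.644 nCPM in the knockout and 5.93 ± 5.28 nCPM in Braf (log2 difference -1.72, adjusted p = 0.0199), and Cp at 1.83 ± 0.674 nCPM in the knockout and 5.39 ± 1.87 nCPM in Braf (-1.14, adjusted p = 0.0495). C3, the central complement protein, was at 6.39 ± 9.11 nCPM in the knockout and 17.5 ± 5.79 nCPM in Braf and did not pass (adjusted p = 0.0777). Of 6 inducing cytokines Il1b fell, at 0.971 ± 0.925 nCPM in the knockout and 3.87 ± 1.65 nCPM in Braf (adjusted p = 0.0403). Of 15 cytokine receptors Lifr, the receptor of leukaemia inhibitory factor, fell to 1.76 ± 1.03 nCPM in the knockout, against 5.53 ± 1.87 nCPM in Braf (adjusted p = 0.0380), and Csf3r to 0.969 ± 0.243 nCPM, against 3.82 ± 2.14 nCPM (adjusted p = 0.0387). Of 16 other epithelial defence genes Duoxa2, the maturation factor of the hydrogen peroxide producing oxidase Duox2, fell to 17.8 ± 7.57 nCPM in the knockout, against 79.4 ± 54.3 nCPM in Braf (adjusted p = 0.0484). Duox2 was at 104 ± 18.3 nCPM in the knockout and 387 ± 246 nCPM in Braf (adjusted p = 0.0693). Under TMM scaling only Steap4 of these 6 kept its call, and 0 of 6 did in the fit of the 2 groups alone.

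Of 14 transcriptional mediators 0 were called. Cebpd came closest, at 12.3 ± 4.45 nCPM in the knockout and 33.5 ± 15.4 nCPM in Braf (log2 difference -1.35, adjusted p = 0.0826), followed by Socs3 at 38.7 ± 13.01 nCPM in the knockout and 66.6 ± 17.6 nCPM in Braf (-0.79, adjusted p = 0.116). Stat3 differed by -0.36 (adjusted p = 0.325). Of 11 receptors and binding partners of the members 0 were called, and Slc22a17, the gene of a lipocalin 2 receptor, was at 1.06 ± 0.924 nCPM in the knockout and 3.27 ± 1.01 nCPM in Braf (adjusted p = 0.0777). Of the other 9 S100 genes tested 0 were called. S100a6 was at 3153 ± 894 nCPM in the knockout and 2580 ± 800 nCPM in Braf (adjusted p = 0.638), while 8 of these 9 were higher in the knockout than in control.

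Against control, 2 of 6 members were higher in the knockout at an adjusted p below 0.05, Lcn2 and Saa3, where 37.4% of all genes were. Here too the 6 members had passed the filter, set at 1 nCPM, through adenoma libraries and no control. Lcn2 averaged 1.70 ± 1.47 nCPM in the knockout and 0.0914 ± 0.121 nCPM in control (log2 difference 1.13, 0.45 to 1.80, adjusted p = 0.00574). Saa3 averaged 1.97 ± 1.83 nCPM in the knockout and 0.0645 ± 0.121 nCPM in control (1.26, 0.55 to 1.97, adjusted p = 0.00385). Ltf, at 1.37 ± 0.961 nCPM in the knockout and 0.370 ± 0.131 nCPM in control, did not pass (log2 difference 0.69, -0.35 to 1.74, adjusted p = 0.246), nor did Lrg1 (0.56, -0.27 to 1.39, adjusted p = 0.241). Serpina3n and S100a9 were above every control in all 6 knockout libraries (21.0% of all genes were) but did not pass either (adjusted p = 0.186 and 0.0648). Neutrophil and macrophage sums were higher in the knockout than in control by 1.89 and 2.28 on the log2 scale (exact permutation p = 0.00216 each), fibroblast markers were higher in 6 of 6 genes and T cell markers lower in 4 of 4, and their part in these values was not tested. A group mean that did not pass is not shown to have returned to the control level: in a fit of these 2 groups alone 5 of 6 passed, Lrg1 being the exception. Within the libraries with fractions, 2 knockout and 6 control, Ltf averaged 0.341 nCPM in the knockout and 0.370 nCPM in control, a log2 difference of -0.03, whereas Lcn2 differed by 1.32 without overlap.

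How the members varied together among adenomas was read in each table, and the difference between the tables was not tested. After the group means were removed, log2 levels of Lcn2, Lrg1 and Serpina3n moved together over the 11 knockout and Braf libraries of the knockout table, with Pearson r of 0.73 for Lcn2 and Lrg1, 0.81 for Lcn2 and Serpina3n and 0.85 for Lrg1 and Serpina3n. Ltf moved with S100a9 (r = 0.76) and with the summed neutrophil markers (r = 0.65), and not with Lcn2 (r = -0.04). S100a9 had r = 0.45 with that sum, and the other members had r between -0.38 and -0.11. Braf 8 was the highest Braf library for Ltf, for S100a9 and for the neutrophil sum, and r was not computed without it. Saa3 had r between -0.18 and 0.36 with the other 5 members. Over the 6 transgene and Braf libraries of the transgene table, every pair of the 7 members had a positive r, from 0.50 to 0.97, including Lcn2 with Ltf (0.82) and Saa3 with S100a9 (0.84). There the summed neutrophil markers had a negative r with all 7 members, among them Ltf (-0.10), S100a9 (-0.46), S100a8 (-0.65) and Saa3 (-0.82). These are descriptions over 11 and 6 libraries, which share scaling within a table, and Braf 1, the highest Braf library for all 7 members, is among the 6. In the knockout table, Braf 7 held the highest Lcn2, Lrg1 and Serpina3n, Braf 8 the highest Ltf and S100a9, and Braf 6 the highest Saa3. Among knockouts, library 3 was the highest for Lcn2, Lrg1, Serpina3n and Saa3, while library 5 was the highest for Ltf and library 2 for S100a9. Serpina3n divided by Lcn2 ran from 0.315 to 2.495 in the knockout and from 0.154 to 2.62 in Braf.

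**Figure D5:**
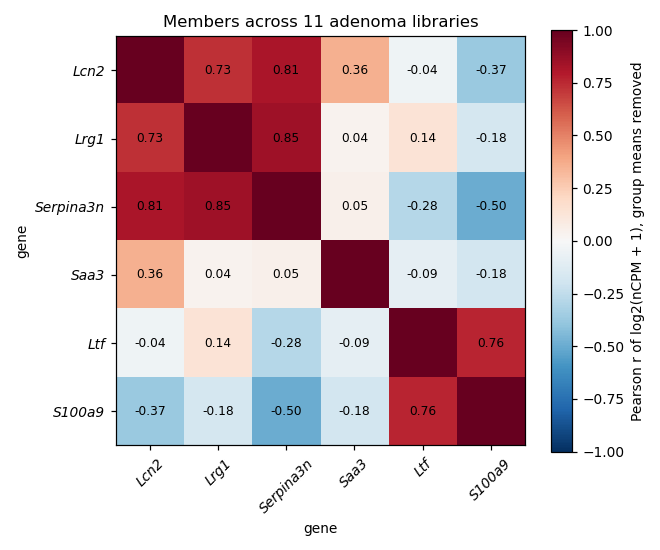
Pearson r between 6 genes of log2(nCPM + 1) over 11 adenoma libraries (6 knockout, 5 Braf) with the mean of each group removed; both axes list genes, colour runs from -1 to 1. Lcn2, Lrg1 and Serpina3n form 1 block (0.73 to 0.85), Ltf and S100a9 another (0.76).

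Genes outside the members with the most similar levels over the 17 grouped libraries of the knockout table were ranked among 10432 genes by Pearson r of log2(nCPM + 1), which includes the differences between groups. For Lcn2 these were Tor3a, Angptl2 and Ush1g (r = 0.92 each), and for Lrg1 they were Trf, Spp1 and Scara3 (0.92, 0.91 and 0.91). Trf encodes transferrin, the iron carrier of plasma, and Spp1 osteopontin, which macrophages also make. For Ltf they were Gbp2, Gbp3 and Plet1 (0.94, 0.93 and 0.93) and for S100a9 Plet1, Gbp3 and AW112010 (0.93, 0.92 and 0.92), so 2 of 3 were shared. Gbp2 and Gbp3 are interferon-inducible GTPases. Serpina3n was nearest to Pla2g2f, Spock2 and Tesc (0.91, 0.91 and 0.87), and Saa3 to Acvrl1, Htra1 and Dtx3 (0.94, 0.92 and 0.91).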

How the data were processed

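RNA was sequenced from 27 libraries, of which 26 were grouped by title and genotype. One library was left out because its title and genotype disagree. Per the submitters' processing notes the authors used fastp, STAR, GRCm38 and limma, without versions. Kits with and without strand are both named in the labels' protocols, with no assignment to libraries. Values of the transgene table are CPM deposited by the authors. Of the nonzero values under 1000 reads, 100% were whole reads within 0.02. Another 12 columns of that table belong to no sample of the series and were not used. Values of the knockout table are a normalised count signal deposited by the authors. They were multiplied by 0.159 (nCPM). The authors' deposited gene lists, another unit, hold symbols without values.

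The filter on low values asked for 1 CPM in 3 libraries of the transgene libraries' table, or 1 nCPM in 5 of the other table. limma 3.58.1 in R 4.3.3 (trend and robust) fitted 1 mean per group on log2(value + 1), which understates changes of low genes. P-values are two-sided and Benjamini-Hochberg adjusted over all genes of the table, with a threshold of 0.05. Fold changes are ratios of means. A fold against a group without a count uses a floor of 3 reads (or 3 normalised counts) per library, which covers counting error only. A fold against 1 to 3 counts is not given. Alternatives were other pseudocounts, filters and scalings, the 2 groups alone, array weights, a replicate block, each library left out, and edgeR 4.0.16 and DESeq2 1.42.0 on the recovered reads. Leaving out libraries for marker sums was added later.

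Members, gene lists and tests were chosen with earlier results of these data known, so p-values are not independent evidence. Named besides the members were up to 4 genes per list with the smallest adjusted p between knockout and Braf, and for each member the 3 genes most like it with a mean of at least 5 nCPM. Genes named after their values were seen are marked or were exceptions to a list. Promoters are from RefSeq (GRCm38.p6), found for 8 of 8 members. Positions are those of GENCODE M21.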

Additional observations from a re-analysis of the deposited data

Results flagged for a closer look

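Of 18 groups of members in the knockout table, 6 had a library far from the others by Dixon's test. The test flags about 1 in 20 groups by chance where values are normally distributed. It was run on nCPM without a log, and the groups share libraries, so that rate need not hold here. Among Braf libraries Lcn2 stood at 18.6 nCPM in Braf 7, with the next at 8.25 nCPM, and the mean was 6.74 ± 1.35 nCPM (SD, n = 4) without it. Ltf stood at 101 nCPM in Braf 8, with the next at 23.5 nCPM, and the mean was 11.7 ± 8.24 nCPM without it. Serpina3n stood at 48.6 nCPM in Braf 7, with the next at 8.59 nCPM, and at 9.11 nCPM in knockout 3, with the next at 1.09 nCPM. Without these the Serpina3n means were 0.650 ± 0.475 nCPM in the knockout (n = 5) and 3.19 ± 3.63 nCPM in Braf (n = 4). Leaving out Braf 7 alone gave a Serpina3n mean 1.55-fold lower in the knockout than in Braf, and leaving out knockout 3 alone 18.9-fold lower. In control, Saa3 stood at 0.309 nCPM in library 9 and S100a9 at 0.157 nCPM in library 6, both under the 0.476 nCPM that 3 normalised counts stand for.

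The library with disagreeing labels, which entered no comparison, exceeded the highest of the 6 control libraries for all 6 members. Its Ltf was 39.6 nCPM, its Lrg1 9.58 nCPM, its Saa3 3.84 nCPM and its S100a9 2.29 nCPM. Its Lcn2 was 1.85 nCPM and its Serpina3n 0.826 nCPM. The highest control values were 0.597 nCPM for Ltf, 0.778 nCPM for Lrg1, 0.309 nCPM for Saa3, 0.157 nCPM for S100a9, 0.310 nCPM for Lcn2 and 0.0417 nCPM for Serpina3n.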

How the results depend on the processing

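Members called at the threshold moved as follows. With a pseudocount of 5 the count was 3 in Braf versus control of the transgene table (7 as reported), 1 in knockout versus control (2) and 1 in knockout versus Braf (3), and a pseudocount of 0.25 gave 4 in knockout versus control. A filter at 5 nCPM left Lcn2 as the only member tested in the knockout table, and it was called in each comparison. The count was thus 1 of 1 tested in each (6, 2 and 3 as reported). In fits of the 2 groups alone the count was 5 in knockout versus control and 0 in knockout versus Braf. A term for exact zeros or fractions gave 1 in each of these, and turned Ltf in knockout versus control to -0.0259 (log2, adjusted p = 0.981 in limma). Without the pair knockout 1 and 2 it was 0 in knockout versus Braf. Leaving out 1 library gave 3 to 7 in Braf versus control of the transgene table and 1 to 3 in knockout versus Braf (1 without Braf 6 or knockout 2). Marker sums without 1 library, an alternative chosen after seeing the data, ranged in knockout versus Braf from -0.56 to 0.00886 for neutrophils (the highest without Braf 8) and from -0.0244 to 0.20 for epithelium (log2). The cause was not tested in any of these. Of single members' results under the alternatives, 650 kept direction and side of the threshold, 72 lost their call, 9 gained one and 1 turned.

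Replicate numbers were not taken as pairs: for numbers 5, 6 and 7 of knockout and Braf the deviations correlated at 0.0297, 0.135 and 0.371. With a replicate block 0 of 6 members and 16 of all genes (2 higher, 14 lower) were called in knockout versus Braf, against 62 without it.

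Genes called in knockout versus Braf numbered 25 with a pseudocount of 0.25, 21 with a filter at 5, 26 under either rescaling, 2 in the fit of the 2 groups, 15 with the term for zeros, 6 without the pair, and 17 to 139 without 1 library. TMM scaling brought the median log2 difference of all genes to between 0.01 and 0.08. It gave 1741 genes higher and 1183 lower for transgene versus Braf (2202 and 716 without it), 4810 and 4339 for transgene versus control (7085 and 2658), 3743 and 3852 for Braf versus control of that table (5020 and 2731), 4285 and 4364 for Braf versus control of the knockout table (6712 and 2405), and 4359 and 4219 for knockout versus control (5535 and 2874). Depth limits S100a8, whose control libraries held no read, and in the knockout table a library's value under 0.476 nCPM stands for fewer than 3 normalised counts.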
